A study of Mus musculus with 2 samples.

Results

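Col10a1-high surface chondrocytes of a pulse-labelled mouse knee cartilage library were described: cells that carried the transcript of collagen X together with aggrecan, but few genes of deeper cartilage. Members were cells with at least 500 detected genes, at most 10% of unique molecular identifiers (UMIs, 1 per captured RNA molecule) from mitochondrial genes, 4 or more UMIs of Col10a1, 2 or more of Acan, fewer than 10 of Hspa1a, Hspa1b and Dnajb1 together, and at most 2 of Matn3, Col9a1, Epyc, Cnmd, Prkg2 and Fxyd2 detected. This gave 1350 of 6533 filtered pulse cells (20.7%, exact Clopper-Pearson 95% interval 19.7 to 21.7%) among 15780 filtered cells in both libraries. The counts of these 11 genes chose the members, so their values are a description.

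The study made 2 droplet single-cell libraries, 1 from each of 2 groups of Procr-CreER;tdTomato mice given tamoxifen at 4 weeks of age, with 3 mice pooled per library. The pulse library came 2 days after tamoxifen and the trace library 4 weeks after it, so the trace mice were also older. In these mice Cre driven from the Procr gene switches on tdTomato after tamoxifen and the mark is then inherited, so a trace cell may be a labelled cell or its descendant. Cells of the knee joint cartilage were sorted as DAPI-, CD31-, CD45-, Ter119- and tdTomato+, and the protocol also speaks of periosteum cells. The mice of a library cannot be told apart by barcode, so there is no spread between animals, no test across samples is possible, and every interval covers counting error only. The pulse members had a median of 3337 UMIs per cell, against 2681 in the other pulse cells, and trace cells passing the same rule a median of 5319. The libraries shared 16 barcodes, of which 6 belonged to pulse members, and 68 members (5.04%) were among the pulse cells with the highest 5% of doublet scores.

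Articular cartilage covers the joint surface and is layered: its superficial cells secrete lubricin, encoded by Prg4, and deeper cells make most of the collagen II and collagen IX network. Collagen X is the textbook marker of hypertrophic chondrocytes, which enlarge, mineralise their matrix and express Ihh, Mmp13, Ibsp, Spp1 and Alpl before bone replaces them. Sparc encodes osteonectin, a collagen-binding matrix protein abundant in bone, and Bmp2 and Bmp5 encode secreted bone morphogenetic proteins that act through SMAD transcription factors.

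The promoters of Col10a1, which defined the cells, and of Sparc and Ibsp, a pair of mineral matrix genes higher in them, are shown because these genes stood together in the comparison below. The 250 bases before the RefSeq start are given 5′ to 3′ on the gene's strand in build GRCm38.p6, at chr10:34389731-34389980 on the plus strand for Col10a1, chr11:55420081-55420330 on the minus strand for Sparc and chr5:104299037-104299286 on the plus strand for Ibsp, with capitals marking the TATA motif letters TATAAA on either strand.
Col10a1: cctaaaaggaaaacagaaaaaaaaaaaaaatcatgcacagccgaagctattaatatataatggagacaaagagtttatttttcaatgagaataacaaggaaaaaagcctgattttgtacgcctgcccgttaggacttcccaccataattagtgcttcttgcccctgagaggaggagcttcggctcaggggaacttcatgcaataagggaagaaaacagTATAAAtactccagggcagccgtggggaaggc
Sparc: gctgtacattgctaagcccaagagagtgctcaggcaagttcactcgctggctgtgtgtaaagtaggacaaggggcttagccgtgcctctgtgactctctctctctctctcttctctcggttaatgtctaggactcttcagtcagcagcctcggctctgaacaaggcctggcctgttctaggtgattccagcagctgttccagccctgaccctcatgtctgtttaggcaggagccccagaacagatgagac
Ibsp: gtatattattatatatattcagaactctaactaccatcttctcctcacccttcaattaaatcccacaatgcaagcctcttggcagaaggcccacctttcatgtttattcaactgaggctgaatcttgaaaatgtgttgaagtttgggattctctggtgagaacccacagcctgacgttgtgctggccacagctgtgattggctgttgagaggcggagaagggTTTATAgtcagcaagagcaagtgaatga
The TATA letters began 32 bases before the start of Col10a1 and 28 before that of Ibsp, on the opposite strand in Ibsp, and were not in the Sparc window. They were in 12.4% of 32841 promoter windows of this length. The RUNX core TGTGGT (14% of windows) and the AP-1 motif TGANTCA (6.75% of windows), searched on both strands, had no match in the 3 windows shown. Windows were found for 5 of the 7 genes looked up, and Bmp2 and Prg4 had none. The windows not shown, of Acan and Bmp5, had no match to any of the 3 motifs. The Acan start could not be matched to a transcript.

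Col10a1 counts of the surface cells reached 389 UMIs and had no gap at the threshold, so the threshold divides a continuous range. Of the 3362 pulse cells that met every other criterion, 1544 had no Col10a1 UMI, 264 had 1, 118 had 2 and 86 had 3. Just inside the threshold, 59 cells had 4 UMIs and 64 had 5, and 332 cells had 16 to 31. The 1808 cells with 0 or 1 UMI are called Col10a1-low surface cells below, and their rule differs from that of the members in this criterion alone. The criterion is a raw count, and depth differed too, with a median of 2717 UMIs per Col10a1-low cell, against 3336.5 in members. Deeper-zone cells are the 632 pulse cells that met the Acan and heat-shock criteria with 3 or more of the 6 deeper-zone genes detected, at any Col10a1 count. They were deeper sequenced, with a median of 7289.5 UMIs per cell, against 3336.5 in members. After each cell was thinned to 2000 UMIs, 99.7% of members had a Col10a1 UMI (95% interval 99.1 to 99.9%), against 10.2% of Col10a1-low cells (8.66 to 12.0%). The share was 7.5% (1.57 to 20.4%) in 40 endothelial marker-bearing cells, a cell type that should lack the gene. The rule set the shares of members and Col10a1-low cells. Summed Col10a1 was 10150 CPM (UMIs of the gene scaled to the group's total UMIs) in members, 48.6 in Col10a1-low cells and 792 in deeper-zone cells.

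**Figure D1:**
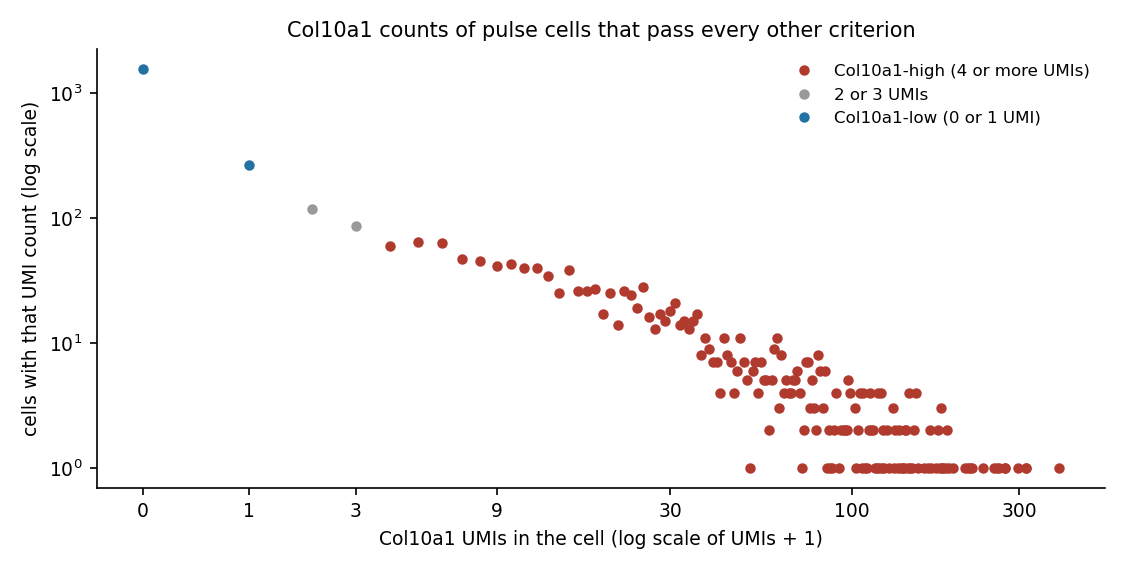
Each point gives the number of pulse surface cells (y axis, log scale) with a given Col10a1 UMI count (x axis, log scale of UMIs + 1), with Col10a1-high cells in red, cells with 2 or 3 UMIs in grey and Col10a1-low cells in blue. The number per UMI value went down across the threshold without a gap, with 86 cells at 3 UMIs, 59 at 4 and 64 at 5.

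Cells on both sides of the threshold were alike in the other marker genes. The 123 members with 4 or 5 Col10a1 UMIs had 38240 CPM of Sparc, 4809 of Bmp2 and 9802 of Prg4, and the 204 cells with 2 or 3 UMIs had 35750 CPM of Sparc, 3999 of Bmp2 and 9050 of Prg4. On the deeper-zone criterion, 593 members had none of the 6 genes, 581 had 1 and 176 had 2, and 27 cells with 3 of them fell just outside. The heat-shock criterion left out 150 cells that met the others, in which Col10a1 stood at 14690 CPM and Sparc at 55060 CPM.

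Outside the rule, Sox9 fits a cartilage label and Prg4, set against deeper-zone cells, a surface label. Col2a1, another cartilage marker, was lower in members than in the other pulse groups. Bmp2 and Bmp5 were shared with Col10a1-low cells. Acan, the main cartilage proteoglycan, was required by the rule and was at 4220 CPM in members, 2656 in Col10a1-low cells and 2249 in all other pulse cells. Sox9, the chondrocyte transcription factor, was at 3709 CPM in members and 2864 in Col10a1-low cells, which are cartilage cells by the same rule. Col2a1, the collagen II gene, was at 3683 CPM in members and 5963 in Col10a1-low cells. It was at 12130 CPM in all other pulse cells and 28190 in deeper-zone cells. Prg4 was detected in 86.4% of thinned members (84.3 to 88.3%), against 15.3% of deeper-zone cells (12.5 to 18.4%). It was at 7626 CPM in members, 350.2 in deeper-zone cells and 6334 in all other pulse cells, so it does not set members apart from the whole library. Prg4 UMIs also occurred in 40.0% of the endothelial marker-bearing cells, so part of such a share may be background. Bmp2 and Bmp5 were 2-fold or more higher in members than in all other pulse cells but were nearly level between members and Col10a1-low surface cells, so they mark surface cells here and do not separate the Col10a1-high ones.

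**Figure D2:**
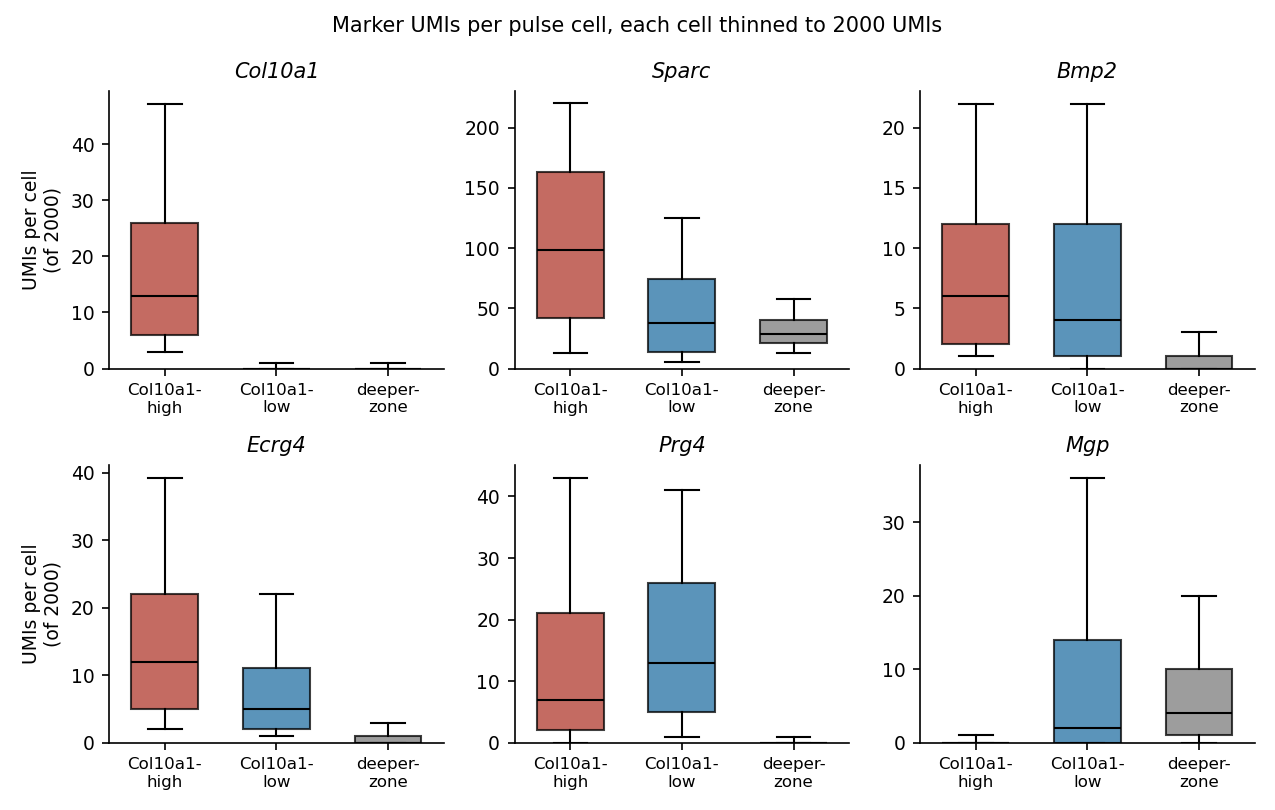
Boxes give UMIs per pulse cell (y axis, of 2000 after thinning) in Col10a1-high, Col10a1-low and deeper-zone cells, with the median, the middle 50% of cells and whiskers at the 10th and 90th percentiles. Sparc and Ecrg4 were highest in Col10a1-high cells, Bmp2 was alike in both surface groups, and Mgp was near 0 in Col10a1-high cells.

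Against the Col10a1-low surface cells, the Col10a1-high cells had more Sparc, Lox and Ibsp and far less Mgp, while BMP ligands and chondrocyte transcription factors were near level. Leaving out the 11 genes of the rule, 6274 genes reached 20 CPM in one or both of these groups, and 119 of them (1.9%) were 2-fold or more higher in members and 149 (2.37%) were 2-fold or more lower. The median log2 ratio over all of them was -0.16, so a gene at that value moved with the bulk of the transcriptome. All ratios below are of CPM from summed UMIs with exact Poisson 95% intervals.

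Matrix and mineral genes held some of the largest differences. Sparc was at 55870 CPM in members and 26390 in Col10a1-low cells, a ratio of 2.12 (2.10 to 2.13). Smoc2, a matricellular protein of the same family, was at 2345 CPM in members and 1100 in Col10a1-low cells, a ratio of 2.13 (2.07 to 2.20). Of the 4 measured SPARC family genes these 2 were higher and Fstl1 was lower.
Lox, the lysyl oxidase that cross-links collagen and elastin, was at 1773 CPM in members and 410.4 in Col10a1-low cells, a ratio of 4.32 (4.12 to 4.53). It was the only 1 of 7 measured cross-linking enzymes past 2-fold. That list was drawn up after values were seen, so its count is a description only. The thinned share with a Lox UMI was 69.5% of members and 28.4% of Col10a1-low cells, against 12.5% of endothelial marker-bearing cells. Ibsp, bone sialoprotein, was at 459.2 CPM in members and 127.2 in Col10a1-low cells, a ratio of 3.61 (3.31 to 3.94).
Ibsp was carried by a minority: 26.6% of thinned members (24.1 to 29.2%) and 6.69% of Col10a1-low cells (5.42 to 8.15%) had a UMI. Mgp, matrix Gla protein, an inhibitor of mineralisation, went the other way, at 548.9 CPM in members and 5866 in Col10a1-low cells, 10.7-fold lower (10.3 to 11.1). Only 19.5% of thinned members had an Mgp UMI, against 64.9% of Col10a1-low cells. Of the 8 measured mineral genes, Ibsp and Sparc were thus higher in members and Mgp lower, with a median log2 ratio of 0.25.

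The other cartilage matrix genes were mostly level. Of 11 measured genes of the non-collagen cartilage matrix list outside the rule, 1 was higher and 1 lower. Chad, the cell-binding protein chondroadherin, was higher, at 5847 CPM in members and 2849 in Col10a1-low cells. Vcan, the large proteoglycan versican, was lower, at 57.0 CPM in members and 160.2 in Col10a1-low cells. Vcan was no longer past 2-fold when cells with marker UMIs of other cell types were left out (log2 ratio -0.84, against -1.49). Among 10 measured cartilage collagens, 1 was lower and none higher. The lower gene was Col12a1, at 24.6 CPM in members and 64.6 in Col10a1-low cells. Col2a1, the main cartilage collagen, was at 3683 CPM in members and 5963 in Col10a1-low cells, a log2 ratio of -0.69. In the small leucine-rich proteoglycans, which bind collagen fibrils, Chad and Omd were higher and Fmod and Lum lower among 7 measured genes. None of 17 chondrocyte transcription factors, 24 secretory pathway genes or 20 glycolysis and hypoxia genes passed 2-fold in either direction. Over all 6274 genes 1.9% were higher and 2.37% lower, so such counts are near the share over all genes. The median log2 ratios of these lists were 0.04, -0.19 and -0.24.

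Several genes of the superficial zone stood lower in the Col10a1-high than in the Col10a1-low cells, and Prg4 was close. Of 11 measured, none was 2-fold higher and 4 were 2-fold lower in members, with a median log2 ratio of -0.71. Clu, the secreted chaperone clusterin, was at 2260 CPM in members and 4883 in Col10a1-low cells. Gas1, a Hedgehog co-receptor, was at 276.6 CPM in members and 689.7 in Col10a1-low cells, and Thbs4, a thrombospondin, at 33.6 CPM in members and 114.0 in Col10a1-low cells. Vit was the fourth, at a log2 ratio of -1.57. Prg4 itself was at 7626 CPM in members and 9148 in Col10a1-low cells, a log2 ratio of -0.26. Cilp, a matrix protein of the intermediate layer, was at 4399 CPM in members and 7242 in Col10a1-low cells. Ecrg4, a secreted peptide precursor, ran against the rest at 8558 CPM in members and 4400 in Col10a1-low cells, a ratio of 1.94 (1.91 to 1.98).

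Some genes of the hypertrophy list other than Col10a1 were higher in the members, and others were scarce. Of 12 measured hypertrophy genes outside the rule, Cd200, Ibsp and Mmp13 were 2-fold or more higher in members than in Col10a1-low cells and none was lower. Over all 6274 genes the shares were 1.9% higher and 2.37% lower. Cd200, a membrane glycoprotein, was at 228.4 CPM in members and 105.5 in Col10a1-low cells. Spp1, osteopontin, was at 940.2 CPM in members and 485.1 in Col10a1-low cells, a log2 ratio of 0.95, and was seen in 35.1% of thinned members and 11.9% of Col10a1-low cells. The Mmp13 value rested on few cells, since 0.841% of thinned members and 1.03% of Col10a1-low cells had a UMI of this collagenase. The Mmp13 log2 ratio of 1.42 became -0.60 without the highest doublet scores and -1.10 without cells carrying markers of other cell types.
Ihh, the Hedgehog ligand of prehypertrophic cells, had 0 UMIs in members and 0 in Col10a1-low cells, and a count of 0 allows up to 0.616 CPM in members. The channel gene Panx3 was at 0.205 CPM in members and 36.8 in deeper-zone cells. Alpl, the phosphatase that frees phosphate for mineral, was at 13.9 CPM in members, 6.63 in Col10a1-low cells and 98.4 in deeper-zone cells. Pth1r, the receptor of parathyroid hormone-related protein, was at 4.10 CPM in members, 6.26 in Col10a1-low cells and 151.2 in deeper-zone cells. Set against deeper-zone cells, 13 of 19 measured hypertrophy genes were lower in members and 3, Cd200, Ibsp and Spp1, were higher, beside 18.8% and 12.7% of all 6851 genes.

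BMP signalling genes were nearly level between the surface groups. Bmp2 was at 4630 CPM in members and 4120 in Col10a1-low cells, a ratio of 1.12 (1.10 to 1.15). Bmp5 was at 999.2 CPM in members and 962.9 in Col10a1-low cells, a ratio of 1.04 (0.998 to 1.08), and Bmp6, another ligand, at 1574 CPM in members and 2099 in Col10a1-low cells.
These were the 3 measured ligands, and none passed 2-fold, as was so for all 8 receptors and SMADs, whose median log2 ratio was 0.004. Such counts are near the share over all genes. Of 24 measured BMP genes, Id4, a target encoding an inhibitor of DNA binding, was higher, at 25.9 CPM in members and 12.5 in Col10a1-low cells, and Id3 and Fstl1 were lower. Against deeper-zone cells the ligands differed more: Bmp2 was at 539.4 CPM there and Bmp5 at 106.9, log2 ratios of 3.10 and 3.22 for members over deeper-zone cells.
Among 8 measured Wnt genes, Sfrp5, a secreted Wnt antagonist, was higher, at 36.7 CPM in members and 2.21 in Col10a1-low cells, and Wnt9a was lower, at 8.82 CPM in members and 22.7 in Col10a1-low cells.

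**Figure D3:**
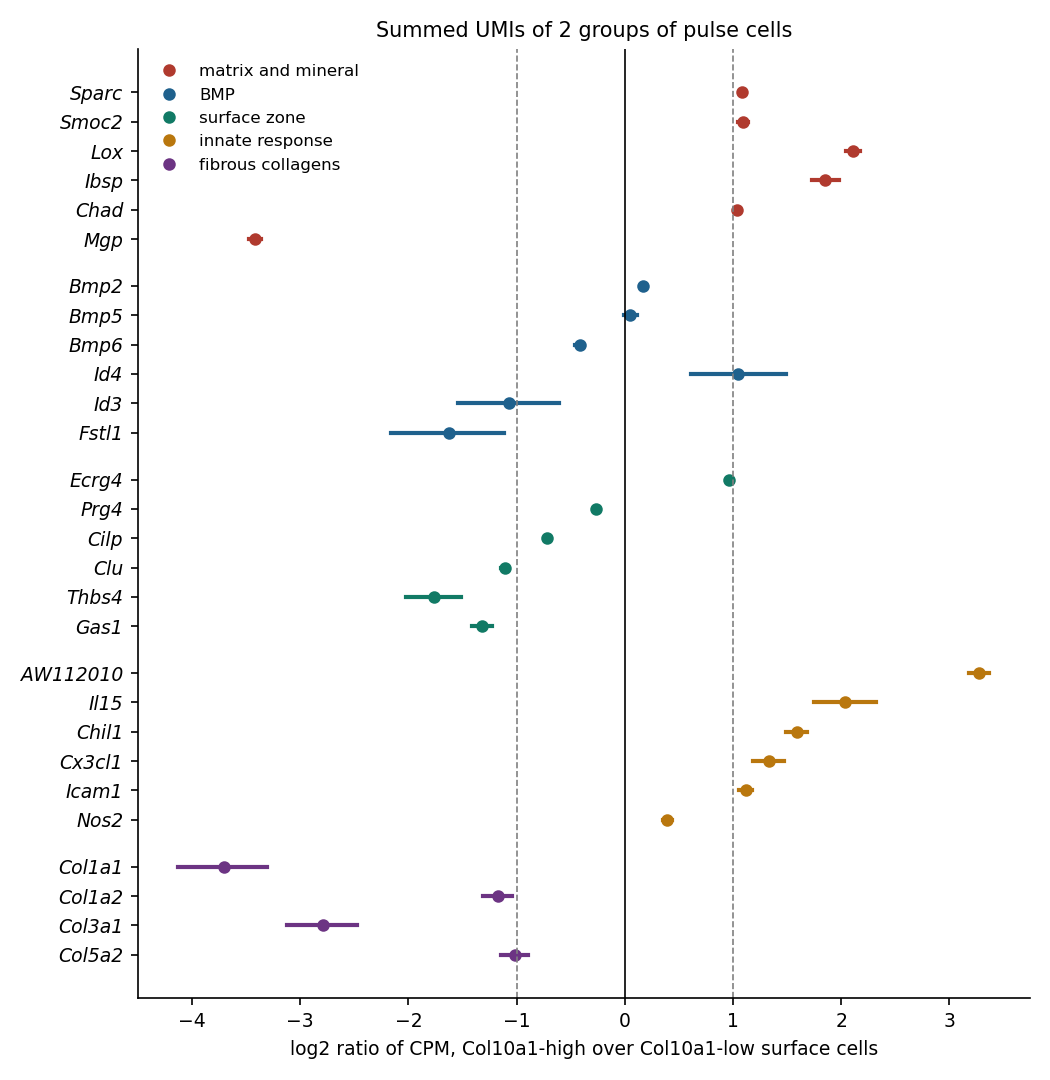
Points give the log2 ratio of CPM (x axis) in Col10a1-high over Col10a1-low pulse cells for genes grouped by role, with lines for the 95% counting interval and dashes at 2-fold. Lox, Ibsp and AW112010 lay to the right, BMP ligands near 0 and Mgp and the fibrous collagens to the left.

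Some genes of inflammatory and interferon responses, and not the lists as a whole, were higher in the Col10a1-high cells. AW112010, an interferon-inducible transcript of mouse immune cells, had the highest ratio among genes at 100 CPM or more, at 1793 CPM in members and 185.4 in Col10a1-low cells, a ratio of 9.67 (9.06 to 10.3). It was detected in 58.5% of thinned members (55.7 to 61.4%) and 8.96% of Col10a1-low cells (7.5 to 10.6%), and in 0 of 40 endothelial marker-bearing cells, with an upper 95% bound of 8.81%.
The list of NF-kB and innate response genes was drawn up after values were seen, so its count describes these cells and is no independent evidence: Chil1, Cx3cl1, Icam1, Il15 and Il1rap of 28 measured genes were 2-fold or more higher, and no gene of the list was 2-fold lower. The list's median log2 ratio was 0.42, against -0.16 for all genes. Il15, a cytokine, was at 100.1 CPM in members and 24.5 in Col10a1-low cells. Cx3cl1, the chemokine fractalkine, was at 269.6 CPM in members and 107.2 in Col10a1-low cells.
Chil1, a secreted chitinase-like glycoprotein of cartilage, was at 629.7 CPM in members and 209.5 in Col10a1-low cells, and Icam1, an adhesion molecule, at 1444 CPM in members and 665.0 in Col10a1-low cells. Nos2, the inducible nitric oxide synthase, was at 1924 CPM in members and 1464 in Col10a1-low cells, a log2 ratio of 0.39. AW112010 was the 1 gene past 2-fold among 6 measured genes of a second late list, MHC class I and interferon response. Ptprc, the pan-leukocyte gene, had 3 UMIs in members and 5 in Col10a1-low cells. The 9 leukocyte markers summed to 84.3 CPM in members and 14 in Col10a1-low cells, mainly through S100a9, which 0.336% of thinned members carried.

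The remaining genes with the highest ratios have varied roles. Pde11a, a cyclic nucleotide phosphodiesterase, was at 162.9 CPM in members and 21.0 in Col10a1-low cells, and St8sia6, a sialyltransferase, at 117.4 CPM in members and 20.8 in Col10a1-low cells. Cryab, a small heat-shock chaperone, was at 737.8 CPM in members and 154.1 in Col10a1-low cells, and Serpina1b, an alpha-1-antitrypsin gene with near-identical neighbours whose reads may be divided among them, at 432.9 CPM in members and 108.8 in Col10a1-low cells.
Efna5, Cadm2, Pank1, Nebl, Adgrg6 and Mia completed the 15 highest, with log2 ratios between 1.54 for Mia, a secreted cartilage protein, and 1.91 for Efna5, an ephrin ligand. Hdac9, a class IIa histone deacetylase, was at 4081 CPM in members and 1959 in Col10a1-low cells and was detected in 93.5% of thinned members and 69.5% of Col10a1-low cells. The dissociation and stress list, outside the heat-shock genes of the rule, had none of 16 measured genes past 2-fold, a count near the share over all genes. Its median log2 ratio was -0.09.

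Several fibroblast-type genes were lower in the Col10a1-high cells. The fibrous collagen list also holds other matrix genes, such as Tnc and Thbs1. Of its 7 measured genes, 4 were lower in members and none higher, with a median log2 ratio of -1.02. The 4 were the collagens Col1a1, Col1a2, Col3a1 and Col5a2. Summed over the list, the level was 14290 CPM in members and 9171 in Col10a1-low cells. That sum rests mainly on Fn1, the fibronectin gene, at 13130 CPM in members and 7102 in Col10a1-low cells. It therefore says little about the collagens. Col1a1 was at 11.3 CPM in members and 147.1 in Col10a1-low cells, and Col3a1 at 18.3 CPM in members and 126.3 in Col10a1-low cells. Beside them, the summed loose connective fibroblast markers were at 26.1 CPM in members and 122.1 in Col10a1-low cells, the tenocyte markers at 169.9 CPM in members and 387.0 in Col10a1-low cells, and the synovial lining markers at 391.1 CPM in members and 740.3 in Col10a1-low cells.
Pi16 and Tnmd were at 0 UMIs in members, and Clec3b had 2. An alternative left out cells with any UMI of 13 marker genes, among them Pi16, Clec3b, Col1a1, Col3a1, Npy and Ltbp2. Without those cells, Col1a2 and Col5a2 were no longer past 2-fold (log2 ratios -0.61 and -0.735), and Mgp remained at -3.15. Col1a1, Col3a1, Npy and Ltbp2 were themselves low in members, with log2 ratios of -3.70, -2.79, -4.28 and -3.82. A smaller gap in genes found in the same cells therefore follows in part from the filter. Npy, which encodes neuropeptide Y, had the lowest ratio, at 12.3 CPM in members and 238.6 in Col10a1-low cells, and was detected in 6.17% of thinned Col10a1-low cells and 0.841% of thinned members.
Cdh13, a cadherin, and Plcxd3 were lower too, with log2 ratios of -2.69 and -2.40. The Cdh13 value was -1.28 without the marker-bearing cells. The other low genes were Crip1, Klf3, Htra4, Pdk4, Tnxb and Apoe, with log2 ratios between -1.74 and -1.24. Endothelial markers summed to 9.03 CPM in members and 14.7 in Col10a1-low cells, erythroid markers to 10.5 CPM in members and 15.3 in Col10a1-low cells, and mural markers to 5.74 CPM in members and 18.2 in Col10a1-low cells, and the part of other cell types in these ratios was otherwise not tested.

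Against all other filtered pulse cells, 223 of 6577 measured genes (3.39%) were 2-fold or more higher in members and 608 (9.24%) were 2-fold or more lower. All but 2 of the 15 highest genes are named above. The exceptions were Rnf19b, at 1152 CPM in members and 296.0 in the other cells, and Layn, at 208.9 CPM in members and 54.1 in the other cells. The lowest were Col1a1, at 11.3 CPM in members and 419.3 in the other cells, and Cdkn1c, an inhibitor of cyclin-dependent kinases, at 3.9 CPM in members and 122.4 in the other cells. Gadd45g, Unc5c, Col3a1, Igfbp5, Scd2, Ecm1, Scd1, Hist1h4i, Ppa1, Ebf1, Igfbp6, Cdh13 and Tgfbi followed, with log2 ratios between -4.95 and -3.37. These other cells are a mixture, and they include fibroblasts, mural cells and deeper chondrocytes. The rule required Col10a1 and Acan in members and capped the deeper-zone and heat-shock genes, which are by construction rarer in them. It set no limit on fibroblast or mural markers.
Of 11 measured cartilage collagens outside the rule, 8 were lower in members than in the other cells and none higher. Of 17 measured hypertrophy genes, 3 were higher, Cd200, Ibsp and Spp1, and 9 were lower. Against the 632 deeper-zone cells, 873 of 6851 genes (12.7%) were higher and 1288 (18.8%) lower in members, with 10 of 11 superficial zone genes higher and 10 of 11 deeper zone genes lower. The 2 groups were chosen by opposite limits on 6 other genes of the deeper zone list. The lower deeper zone genes therefore follow in part from the selection and are a description.

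The members varied among themselves most in Sparc, Prg4, Col10a1 and Ecrg4, once S100a9, carried by few cells, is set aside. Per 2000 UMIs, Sparc had a 10th percentile of 13, a median of 98 and a 90th percentile of 220. Prg4 ran over 0, 7 and 43 UMIs at these points, Col10a1 over 3, 13 and 47.2, and Ecrg4 over 2, 12 and 39.2. The spread includes counting noise, and the variance was 60.2 times the mean for Sparc and 31 times the mean for Prg4. Malat1, Fn1, Cemip, Mgp and Mmp3 completed the 10 most variable genes.

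Within the members, Prg4, Clu, Gas1 and Mgp stood lower and Sparc and Ecrg4 higher in the bins with more Col10a1. The 1189 members with 2000 UMIs or more were put in 4 bins of 299, 317, 280 and 293 cells by their thinned Col10a1 count. From the lowest to the highest bin, Sparc was at 42960, 52260, 61600 and 70060 CPM, and Ecrg4 at 6498, 7699, 9960 and 10020 CPM. Prg4 was at 10350, 7668, 6939 and 5348 CPM over the same bins. Mgp was at 800.0, 780.4, 401.1 and 262.4 CPM. So Prg4 and Mgp were lowest where Col10a1 was highest, and Sparc and Ecrg4 were lowest where Col10a1 was lowest.
Clu followed Prg4, at 2821, 2431, 2115 and 1433 CPM, and Gas1 did too, at 494.2, 252.5, 205.2 and 154.8 CPM. Of the 11 measured superficial zone genes, 2 were 2-fold or more lower in the highest than in the lowest bin, Gas1 and Vit, and none was 2-fold higher. Cryab was at 328.3, 554.3, 960.3 and 1087 CPM and Serpina1b at 251.9, 291.1, 397.4 and 760.5 CPM. Inhba, the activin A subunit, was at 794.8, 870.9 and 926.1 CPM in the lower 3 bins and 1993 CPM in the highest. Between the highest and the lowest bin, 79 of 6076 measured genes (1.3%) were 2-fold or more higher in the highest and 161 (2.65%) were 2-fold or more lower. Bmp2 was flat, at 4712, 4520, 4561 and 4902 CPM, as was Sox9, at 3745, 3640, 3863 and 3553 CPM. Icam1 was highest in the lowest bin, at 1723, 1556, 1167 and 1194 CPM. Median depth over the bins was 3387, 3584, 3597 and 3778 UMIs.

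**Figure D4:**
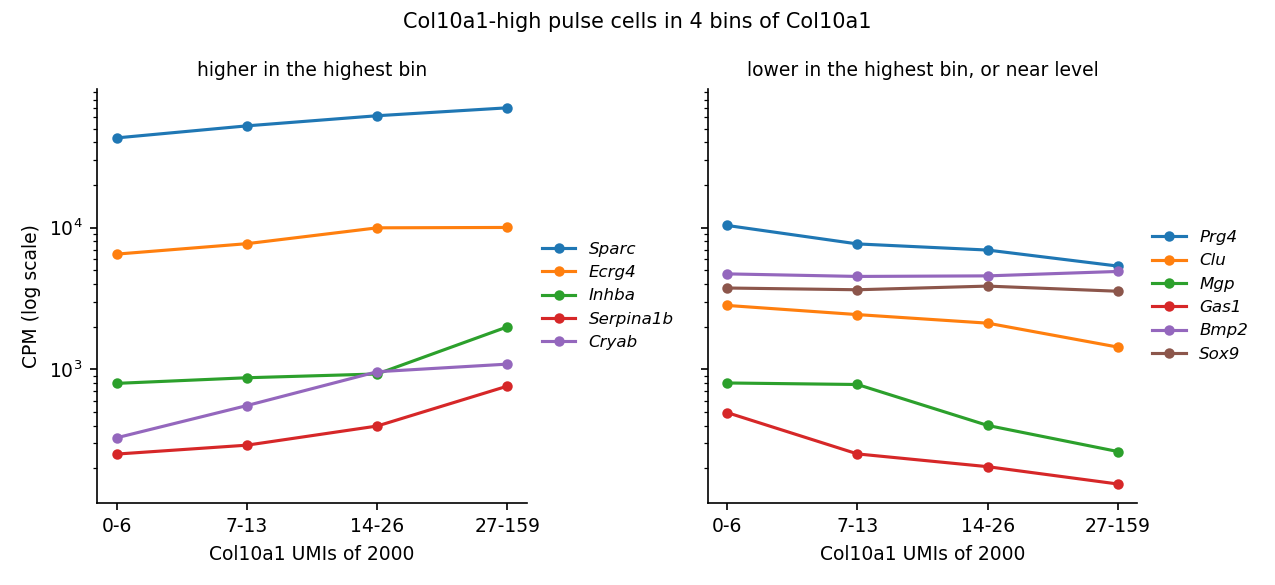
Lines give CPM (y axis, log scale) over 4 bins of Col10a1-high pulse cells ordered by Col10a1 UMIs of 2000 (x axis). Sparc, Ecrg4, Inhba, Serpina1b and Cryab were higher in the highest bin, Prg4, Clu, Mgp and Gas1 lower, and Bmp2 and Sox9 near level.

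In the trace library, 1031 of 9247 filtered cells (11.2%, 10.5 to 11.8%) passed the same rule, so the share was 20.7% in pulse and 11.2% in trace. Age, time after tamoxifen and library differ together between these 2 sets and cannot be told apart. Of 6009 genes measured, 526 (8.75%) were 2-fold or more higher in the pulse members and 191 (3.18%) were 2-fold or more lower, with a median log2 ratio of 0.22 over all. Transcripts associated with ribosomal RNA made up 0.961% of UMIs in the pulse library and 8.89% in the trace library, and Cmss1, Lars2 and Gphn of this group were among the 10 lowest genes, as was Cdk8. With the 6 features of the group out of the total, the counts were 407 higher and 261 lower.
Sparc stood apart, at 55870 CPM in pulse members and 3857 in trace cells passing the rule, a ratio of 14.5 (14.3 to 14.7). The Col10a1-low cells showed the same order, at 26390 CPM in pulse and 4902 in trace, and deeper-zone cells were at 17980 CPM in pulse and 13920 in trace. So the gap was present in both surface groups and smaller in the deeper-zone cells.
Col10a1 itself was at 10150 CPM in pulse members and 7156 in trace cells. Bmp2 was at 4630 CPM in pulse members and 2271 in trace cells, and Bmp5 at 999.2 CPM in pulse members and 316.0 in trace cells, the 2 of 3 measured BMP ligands past 2-fold. Of 11 measured superficial zone genes, 3 were 2-fold or more lower and 2 were higher in pulse members than in trace cells. The lower 3 were Prg4, Cilp and Clu. Prg4 was at 7626 CPM in pulse members and 30930 in trace cells, Cilp at 4399 CPM in pulse members and 10000 in trace cells, and Clu at 2260 CPM in pulse members and 5825 in trace cells. The higher 2 were Cilp2, at 491.2 CPM in pulse members and 90.4 in trace cells, and Gas1, at 276.6 CPM in pulse members and 93.8 in trace cells. Egr1, an immediate early gene, was higher in pulse members, at 266.1 CPM, against 45 CPM in trace cells, and Il15 and AW112010 were higher too. Other highest genes were Daglb, Pde11a, Pkd2l2, Cilp2, Lysmd4 and Rpgrip1, with log2 ratios between 2.22 and 3.51.
Mgp was lower in pulse members, at 548.9 CPM, against 3154 CPM in trace cells. Col1a1, Loxl4, Plcxd3 and Pde1a were also among the lowest, with log2 ratios between -4.41 and -2.34. Msmp, the lowest, was at 2.46 CPM in pulse members and 257.9 in trace cells, but 0.420% of thinned pulse members and 1.35% of thinned trace cells carried it, and its log2 ratio was -6.71 as measured and -2.88 without cells carrying markers of other cell types.

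The contrast of Col10a1-high with Col10a1-low surface cells recurred in the trace library, which shares no cells with the pulse contrast. In trace, 78 of 5797 genes (1.35%) were higher and 80 (1.38%) lower in the Col10a1-high cells. Among 5515 genes measured in both libraries, 83 were 2-fold higher in pulse and 73 in trace, and 48 were in both sets, 57.8% of the pulse set and 65.8% of the trace set. Of lower genes there were 100 in pulse and 62 in trace, with 40 in both, 40% of the pulse set and 64.5% of the trace set. Over all 5515 genes, 1.32% were higher and 1.12% lower in trace. Of the 83 higher genes of pulse, 78 had the same sign in trace, and of the 100 lower genes, 97 did. The median log2 ratio over the 5797 genes of trace was -0.10, so most genes were below 0 there. The share of all 5515 genes with each sign was not computed. Pearson's r of the log2 ratios was 0.73 across these genes, which are not independent replicates and share the pooled cells of each library.
AW112010 was at 327.8 CPM in Col10a1-high and 35.7 in Col10a1-low trace cells, and Lox at 630.2 CPM in Col10a1-high and 202.4 in Col10a1-low trace cells. Smoc2 was at 2140 CPM in Col10a1-high and 686.4 in Col10a1-low trace cells, and Chil1 at 999.8 CPM in Col10a1-high and 200.9 in Col10a1-low trace cells. Mgp was at 3154 CPM in Col10a1-high and 12430 in Col10a1-low trace cells. Sparc did not keep its direction: its log2 ratio was 1.08 in pulse and -0.35 in trace. Ibsp was the only gene past 2-fold in opposite directions, with log2 ratios of 1.85 in pulse and -1.05 in trace. Bmp2 was at 2271 CPM in Col10a1-high and 1220 in Col10a1-low trace cells, a log2 ratio of 0.90, and Prg4 at 30930 CPM in Col10a1-high and 23260 in Col10a1-low trace cells, a log2 ratio of 0.41.

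**Figure D5:**
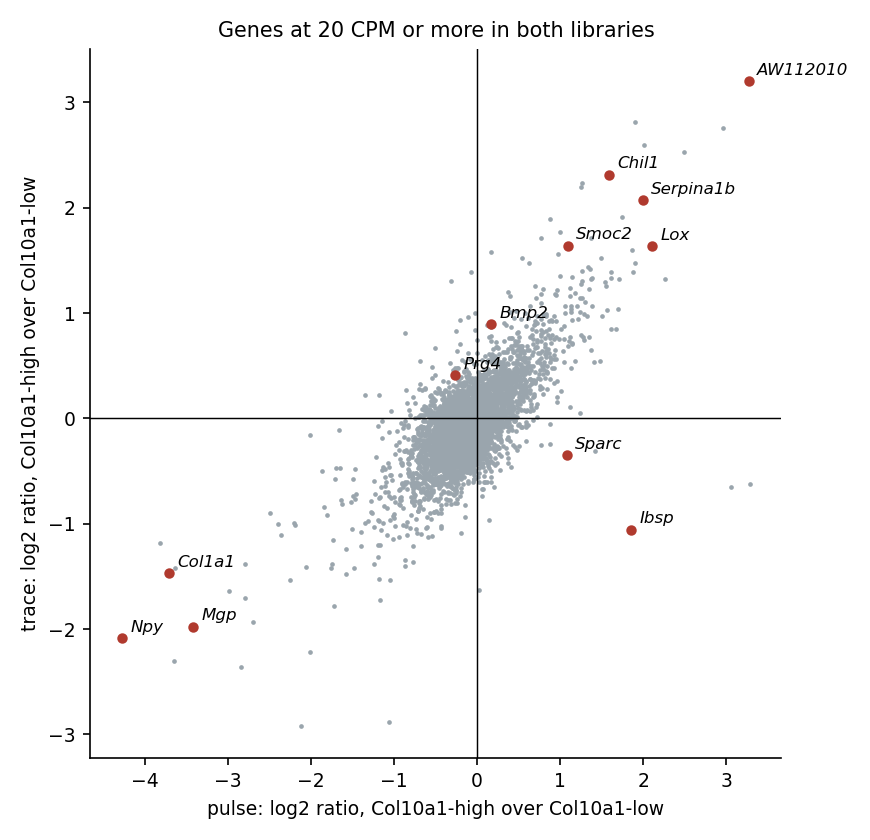
Each point is a gene at 20 CPM or more in both libraries, with the log2 ratio of Col10a1-high over Col10a1-low surface cells in pulse (x axis) and in trace (y axis). AW112010, Lox, Smoc2, Chil1 and Serpina1b were higher in both, Mgp lower in both, and Ibsp and Sparc had opposite signs.

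The genes of the labelling system were scarce in the members. Procr, the gene that drives CreER, had 12 UMIs in members, 2.46 CPM (1.27 to 4.30), against 19.3 CPM in Col10a1-low cells and 66.0 CPM in all other pulse cells. It was detected in 0.589% of thinned members (0.237 to 1.21%), 2.43% of Col10a1-low cells (1.68 to 3.39%) and 26.8% of cells bearing loose fibroblast markers. The Tdtomato transcript, which marks the sort, was at 33.2 CPM in members and 40.7 in Col10a1-low cells, a ratio of 0.82 (0.66 to 1.01). Cells with 2 or more UMIs of S phase and G2/M genes after thinning made up 7.65% of members (6.21 to 9.31%), 11.2% of Col10a1-low cells (9.54 to 13%) and 21.1% of deeper-zone cells (17.9 to 24.5%). In endothelial marker-bearing cells the share was 15% (5.71 to 29.8%). Summed G2/M genes were at 48.8 CPM in members and 42.9 in Col10a1-low cells, and none of them reached 20 CPM in either group. Summed S phase genes were at 191.2 CPM in members and 220.6 in Col10a1-low cells. None of the 3 measured S phase genes passed 2-fold, so the shares do not establish less cycling in members. Mki67, a proliferation marker, was detected in 0.673% of thinned members and 0.955% of Col10a1-low cells, whose intervals overlap.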

How the data were processed

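The authors deposited whole-number UMI counts per gene and barcode for 2 libraries with 6863 pulse and 10423 trace barcodes, 23306063 and 40284041 UMIs and 32286 features, with no normalization. Cell Ranger 7.1.0 wrote the matrices, per the file headers, but version 3.0.1 and mm10 are given in the submitters' processing notes. Whether intron reads were counted is not given in the sources used here, and the 3′ protocol makes counts of different genes incomparable in level.

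Raw counts were summed over the cells of each group and scaled to CPM. Ratios carry exact conditional Poisson 95% intervals and shares exact Clopper-Pearson 95% intervals, both for counting error only. Genes that reached 20 CPM in either group were counted past 2-fold, and 0 UMIs were set to a floor of 3 over the group. Shares of cells and cycle scores used cells thinned to 2000 UMIs, which left 1189 members and 1361 Col10a1-low cells. Endothelial and fibroblast marker-bearing cells, 67 and 138 before thinning, had 3 or more UMIs of the listed markers. Scrublet in scanpy 1.11.5 called 3 of 6533 pulse cells, too few to be used, so cells with the highest 5% of scores were left out as an alternative. Steps used Python 3.11.15, numpy 2.4.6, scipy 1.17.1 and pandas 2.3.3 and were tested on simulated data. Promoter sequences came from RefSeq (GRCm38.p6).

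The members and gene lists were chosen with earlier results of these data known, and 4 lists were added after values were seen. Named were the marker and rule genes, the 15 highest and lowest ratios against the other and the Col10a1-low pulse cells (10 against trace) at 100 CPM or more, up to 4 genes per list, measured BMP ligands and the 10 most variable genes. Predicted models and mitochondrial, ribosomal, haemoglobin, immunoglobulin and sex-linked genes were left out. Other genes named by symbol, such as Icam1, Nos2, Inhba and the genes listed in counts, were chosen after their values were seen.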

Additional observations from a re-analysis of the deposited data

Results flagged for a closer look

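Ibsp, bone sialoprotein, was the 1 gene whose ratio of Col10a1-high over Col10a1-low surface cells passed 2-fold in opposite directions in the 2 libraries, with log2 ratios of 1.85 in pulse and -1.05 in trace. It was at 459.2 CPM in Col10a1-high and 127.2 in Col10a1-low pulse cells, and at 138.7 CPM in Col10a1-high and 288.1 in Col10a1-low trace cells. The thinned share of cells with an Ibsp UMI was 26.6% of Col10a1-high and 6.69% of Col10a1-low cells in pulse, and 5.81% of Col10a1-high and 6.78% of Col10a1-low cells in trace. Without cells that carried markers of other cell types the log2 ratio was 2.13 in pulse and -0.12 in trace. With 1 library per group the difference between the libraries was not tested.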

How the results depend on the processing

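No paired analysis was possible because each group is 1 library, and leaving out a replicate was not possible for the same reason. The number of members was between 1075 and 1350 over all alternatives, the lowest when the rule was applied after thinning to 2000 UMIs.

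Counts of genes past 2-fold moved by over 1.5 times under some floors and scalings only. With a floor of 10 CPM, 1024 genes were lower in members than in the other pulse cells and 296 than in Col10a1-low cells, 834 were higher than in trace cells passing the rule, and 134 were lower in Col10a1-high than in Col10a1-low trace cells. With a floor of 50 CPM the counts were 273 lower than the other pulse cells, 71 higher and 62 lower than Col10a1-low cells, 688 lower than deeper-zone cells, and 291 higher and 124 lower than trace cells, and within trace 51 higher and 38 lower. With the median log2 ratio set to 0, 95 genes were lower than in Col10a1-low cells, and 329 were higher and 313 lower than in trace cells. That scaling shifts ratios to Col10a1-low cells by the median of -0.16.

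Of named genes past 2-fold, Mmp13 against Col10a1-low cells reversed to -0.60 without the highest doublet scores and to -1.10 without cells carrying markers of other cell types, and Igfbp6 to 0.039 without the latter cells. That last alternative, chosen after seeing the data, took 13 of 67 named genes below 2-fold against Col10a1-low cells, and each other alternative at most 6 of 71. Its filter used Col1a1, Col3a1, Npy and Ltbp2, which were low in this same contrast, so part of that loss follows from the filter. Against these cells Col1a1 was at -5.11, Col3a1 at -3.44 and Npy at -5.53 without the highest doublet scores, and Col1a1 was at -2.70 and Col3a1 at -2.12 when the rule followed thinning. Within trace, thinning first gave 2.58 for AW112010 and 1.38 for Chil1. The cause was not tested.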
